A study of Homo sapiens with 4 samples.

Results

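The ID genes ID1, ID2, ID3 and ID4 encode the inhibitor of DNA binding proteins. The 4 genes were taken by name from the 58302 genes listed, and the question put to them was how the level of each without doxycycline (dox) stood beside its response to dox at day 3. They were selected on measured values of this same contrast, since ID3 was known to be high and not to follow ID1 and ID2, so their levels and fold changes are given as a description with no test. Of the 4, ID1, ID2 and ID3 were among the 16181 genes with enough reads to test, and ID4 was not.

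ID proteins carry a helix-loop-helix domain but lack the basic stretch through which related transcription factors contact DNA. They pair with E proteins such as TCF3, TCF4 and TCF12, and an E protein held in such a pair cannot bind its DNA sites with a tissue-specific partner. Transcription of ID genes is a textbook response to bone morphogenetic proteins (BMP), whose receptors phosphorylate SMAD1, SMAD5 and SMAD9 to enter the nucleus with SMAD4. ID1, ID2 and ID3 are widely used as a readout of this pathway, in epithelial and cancer cells among others.

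The cells were NCI-H838, an established line from a human non-small-cell lung cancer. All 4 libraries came from MIB1-iKO cells, in which dox turns on Cas9 beside a guide to MIB1. MIB1 encodes the ubiquitin ligase Mind Bomb 1, which the study links to BMP signaling. The 2 no dox libraries were from cells without dox, and the 2 dox libraries from cells given 0.5 μg/mL dox, both at day 3 and with no BMP ligand named in the labels. Groups follow the sample titles, since the treatment text, the same for every sample, mentions dox also for those titled no dox. By the study's methods the MIB1-iKO cells are single-cell clones, and the labels do not name the clone or the guide. No dox-treated cells without the MIB1 guide are among these samples, so a response to dox or to Cas9 cannot be told apart from a response to loss of MIB1. The study calls its samples of this experiment biological replicates, while the labels do not say whether they were separate cultures. Errors and p-values therefore measure the spread between these libraries, which limma in part shares across genes.

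MIB1 was read first as a check of the labels. It had 598 and 588 reads in no dox replicates 1 and 2 and 90 and 59 in dox replicates 1 and 2, that is, −2.58 as log2 fold change with adjusted p = 0.000375 by limma. Total read counts were between 15943025 and 24398411, lower in both dox libraries. Among the epithelial markers EPCAM, KRT8, KRT18 and CDH1 had reads in every library, while KRT19 was at 0 in all of them. Of the 5 lung lineage markers, NKX2-1, SFTPB and SCGB1A1 were at 0 in every library and the other two never exceeded 8 reads, so the lung label had no lineage marker behind it. The 3 endothelial and 3 leukocyte markers each summed, as lists, to at most 0.143 RPKM in a library.

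The sequences before the start of ID1, ID2 and ID3 are shown because the 3 genes are set side by side as targets of one pathway. RefSeq gives 250 bases before each start on GRCh38.p14. They are printed 5′ to 3′ on the strand of the gene. Capitals mark GGCGCC and GGAGCC, letters of the kind bound by SMAD1 and SMAD5, and GTCT, the SMAD box, on either strand (GGCTCC and AGAC on the opposite one). ID1 lies on chromosome 20 (chr20:31605039-31605288, plus strand), ID2 on chromosome 2 (chr2:8681806-8682055, plus strand) and ID3 on chromosome 1 (chr1:23559502-23559751, minus strand).
ID1: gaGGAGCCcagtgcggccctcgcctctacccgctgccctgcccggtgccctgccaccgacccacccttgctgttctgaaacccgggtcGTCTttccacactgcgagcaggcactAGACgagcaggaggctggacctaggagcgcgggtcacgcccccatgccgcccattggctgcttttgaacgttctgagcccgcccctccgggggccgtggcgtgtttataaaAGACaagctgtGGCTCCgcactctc
ID2: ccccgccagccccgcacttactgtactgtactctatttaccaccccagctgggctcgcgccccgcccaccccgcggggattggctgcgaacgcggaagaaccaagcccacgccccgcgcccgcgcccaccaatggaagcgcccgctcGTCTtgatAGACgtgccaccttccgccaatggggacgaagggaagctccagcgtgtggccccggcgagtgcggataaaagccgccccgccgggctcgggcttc
ID3: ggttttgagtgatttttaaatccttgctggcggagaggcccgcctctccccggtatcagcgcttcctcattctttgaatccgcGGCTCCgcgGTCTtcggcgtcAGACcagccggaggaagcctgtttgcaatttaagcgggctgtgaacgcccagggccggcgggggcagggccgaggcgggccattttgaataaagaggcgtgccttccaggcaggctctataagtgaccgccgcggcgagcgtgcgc

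GTCT was found 3 times before ID1, 2 times before ID2 and 2 times before ID3, and 77.5% of 35116 RefSeq promoters of this length hold it. GGAGCC was found 2 times before ID1, 1 time before ID3 and not before ID2, against 30.6% of promoters. GGCGCC was in none of the 3 windows and is in 16.4% of all. The ETS letters CCGGAA (14.5% of all promoters) were in none of them either, and the E-box CANNTG, the site of E proteins, was found 1 time before ID2 only, against 61.8% of all. The window before ID4 on chromosome 6 had 2 GGAGCC, 1 GTCT and 1 CANNTG. At this length the 3 expressed genes were thus set apart by few letters, and each of these motifs is in 14.5% or more of promoters.

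A wider window of 5000 bases before the gene start of GENCODE was searched for the same letters. All 4 ID genes held GGCGCC in it, 2 times before ID1, 1 time before ID2, 1 time before ID3 and 2 times before ID4, as did 57.2% of the 20043 protein-coding genes. GGAGCC was found 4, 6, 4 and 3 times before ID1, ID2, ID3 and ID4, and 88.2% of genes hold it. GTCT and CANNTG were in 100% of such windows, and CCGGAA, in 49.0% of them, was before ID1, ID2 and ID4 and not before ID3. For ID2 this window ends at the start of its longest transcript (base 8678845), upstream of the RefSeq start shown above. The bases from there to 8681806, where the ID2 sequence shown above begins, were in neither window. The arrangement of GGCGCC followed after 5 bases by GTCT, a published form of BMP-responsive site, occurred before 85 genes (0.424%). Within the windows searched ID3 was the only ID gene with it, on its own strand and 2962 bases before its start. For ID2 the bases at a like distance before the RefSeq start were not searched. It is printed as the one match found in these windows, with capitals only over this arrangement and the bases within it (chr1:23562419-23562493, minus strand).
ID3 upstream: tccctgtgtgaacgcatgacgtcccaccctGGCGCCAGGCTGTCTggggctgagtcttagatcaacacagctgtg

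A match of letters is a description and not a binding site, and no binding was measured in these samples.

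Without dox the ID genes covered a wide range of levels. On the RPKM scale, which divides reads by gene length and depth and so allows levels to be set between genes, ID3 was the most abundant, then ID1, then ID2, with ID4 close to the limit of detection. ID3 stood at 386 and 374 RPKM in no dox replicates 1 and 2, and 195 genes tested were higher. ID1 stood at 84.7 and 90.7 RPKM, with 1093 genes higher. ID2 stood at 10.7 and 11.2 RPKM, with 5098 genes higher. Neighbours in this order were far apart beside their spread, the means being 380 ± 8.43, 87.7 ± 4.19 and 11.0 ± 0.331 RPKM (SD, n = 2). In cells without dox ID3 made up 80.2% and 78.6% of the summed RPKM of the family, ID1 17.6% and 19.0%, and ID2 2.23% and 2.35%.

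The order did not rest on the gene models. The lengths behind the deposited RPKM were 1.74 times that of ID1 for ID2, 1.01 times for ID3 and 1.90 times for ID4, whereas the canonical GENCODE transcripts are 983, 1299, 950 and 3873 bases long for ID1, ID2, ID3 and ID4. With reads scaled by the library total (CPM) and divided by those lengths in kb instead, a scale added after the data were seen, the no dox means were 499 for ID3, 110 for ID1, 18.0 for ID2 and 0.0804 for ID4.

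ID1, on chromosome 20 (31605283 to 31606515, plus strand, 2 exons), is the family member most often read as a BMP target. Its counts were 2455 and 2447 in no dox replicates 1 and 2 and 2326 and 2663 in dox replicates 1 and 2, from libraries of unequal depth. Scaled, these were 84.7 and 90.7 RPKM without dox and 124 and 119 RPKM with dox. Both dox libraries were above both no dox libraries. The means were 87.7 ± 4.19 and 121 ± 3.27 RPKM (SD, n = 2), a ratio of 1.38, and the log2 fold change in the fit over all genes was 0.49 ± 0.11 (SE). Among the genes tested 935 had a higher log2 fold change than ID1.

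ID2, on chromosome 2 (8678845 to 8684461, plus strand), is best known for binding RB-family proteins as well as E proteins. It had 540 and 525 reads (no dox) against 578 and 597 (dox). Its RPKM was 10.7 and 11.2 without dox and 17.7 and 15.4 with dox, so the groups again did not overlap. The means were 11.0 ± 0.331 and 16.5 ± 1.65 RPKM (SD, n = 2), a ratio of 1.51. The log2 fold change of ID2 was 0.61 ± 0.14 (SE), exceeded by 609 genes. At these counts the counting error alone was 4.09% to 4.36% of a value, and in RPKM the ID2 dox libraries differed from each other by more than that. In CPM they stood at 36.3 and 35.0 and differed by less than that.

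ID3, on chromosome 1 (23557926 to 23559501, minus strand), shares its E protein partners with ID1. It had 11345 and 10242 reads (no dox) against 7811 and 8367 (dox), the most reads of the family. Its RPKM was 386 and 374 without dox and 410 and 369 with dox, and here the dox values lay on either side of the no dox values. The means were 380 ± 8.43 and 389 ± 28.8 RPKM (SD, n = 2), a ratio of 1.02. The log2 fold change of ID3 was 0.04 ± 0.097 (SE), close to the median of −0.0004 over all genes, and 2535 genes had a smaller absolute log2 fold change. Counting error was 0.939% to 1.13%. The coefficient of variation between the dox libraries was 7.39% in RPKM, above that error. In CPM the dox libraries stood at 489.9 and 490.8, within that error, so the spread of ID3 depended on the scale.

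The scale mattered for whether the ID3 groups overlapped. In CPM, with no further factor, ID3 was at 465 and 483 without dox and 490 and 491 with dox, so the groups were apart, with 483 and 490 as the nearest values. The deposited RPKM carry a further factor per library, and on that scale and after quantile normalization the groups overlapped. ID1 and ID2 did not overlap on either the RPKM or the CPM scale. The share of all genes with groups apart in CPM was not counted, so nothing is read from the separation in CPM.

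ID4, on chromosome 6 (19837370 to 19842197, plus strand), is the member best known from the nervous system and the breast. It had 6 and 8 reads (no dox) against 6 and 6 (dox). Its RPKM was 0.109 and 0.156 without dox and 0.168 and 0.141 with dox, with the groups overlapping. A count of 3 reads, the most that a count of 0 allows, stood at 0.0545 to 0.0840 RPKM in these libraries, and the counting error of ID4 was 35.4% to 40.8%, so a response of ID4 was not detectable at this depth. Such limits cover counting error only, since PCR copies of one molecule cannot be recognised here.

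In RPKM, 2 of the 3 ID genes tested, ID1 and ID2, had both dox libraries above both no dox libraries, as did 18.1% of all genes tested. Nothing is read from that count, because the genes were chosen on this contrast. In bulk RNA a change in the share of cells that express a gene and a change in the RNA per cell cannot be told apart.

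**Figure D1:**
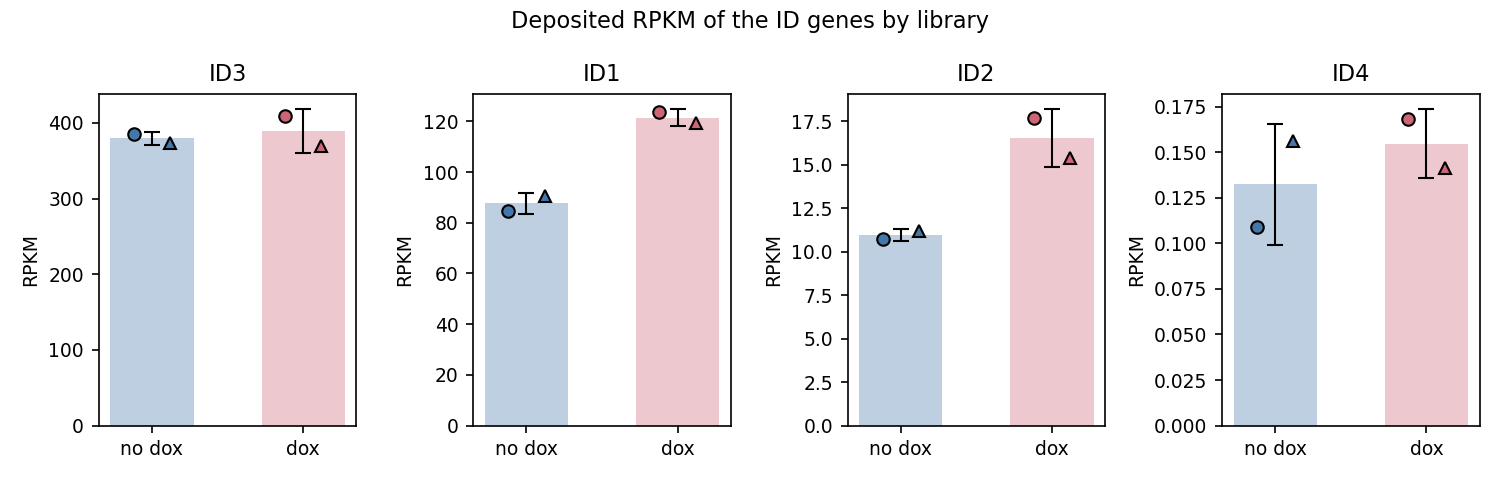
Deposited RPKM (linear axis from 0, one scale per panel) of ID3, ID1, ID2 and ID4 in the 2 no dox (blue) and 2 dox (red) libraries, with circles for replicate 1 and triangles for replicate 2, bars for the group mean and error bars for the SD (n = 2). The dox points of ID1 (124 and 119 RPKM) and ID2 (17.7 and 15.4 RPKM) lie above their no dox points, while those of ID3 and ID4 overlap theirs.

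Ratios between ID genes within one library do not depend on the scaling of that library. The RPKM ratio of ID3 over ID1 was 4.55 and 4.13 without dox and 3.31 and 3.10 with dox. That of ID3 over ID2 was 36.0 and 33.4 without dox and 23.1 and 23.997 with dox. In both, the 2 dox libraries were below the 2 no dox libraries. On the log2 scale ID1 over ID3 was higher by 0.44 with dox, the nearest libraries of the groups being 0.32 apart, and ID2 over ID3 was higher by 0.56, the nearest libraries being 0.48 apart. ID1 over ID2 was 7.90 and 8.10 without dox and 6.99 and 7.75 with dox, and the nearest libraries were 0.03 apart on the log2 scale. These ratios restate the values on which the genes were chosen and lend no support to a difference between them.

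The share of ID3 in the summed RPKM of the family was 80.2% and 78.6% without dox and 74.3% and 73.3% with dox, while that of ID1 was 17.6% and 19.0% without dox and 22.5% and 23.7% with dox. The sum itself was 482 and 476 RPKM without dox and 551 and 504 RPKM with dox, a ratio of 1.10 between means. ID3 remained the bulk of ID transcript in all 4 libraries.

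**Figure D2:**
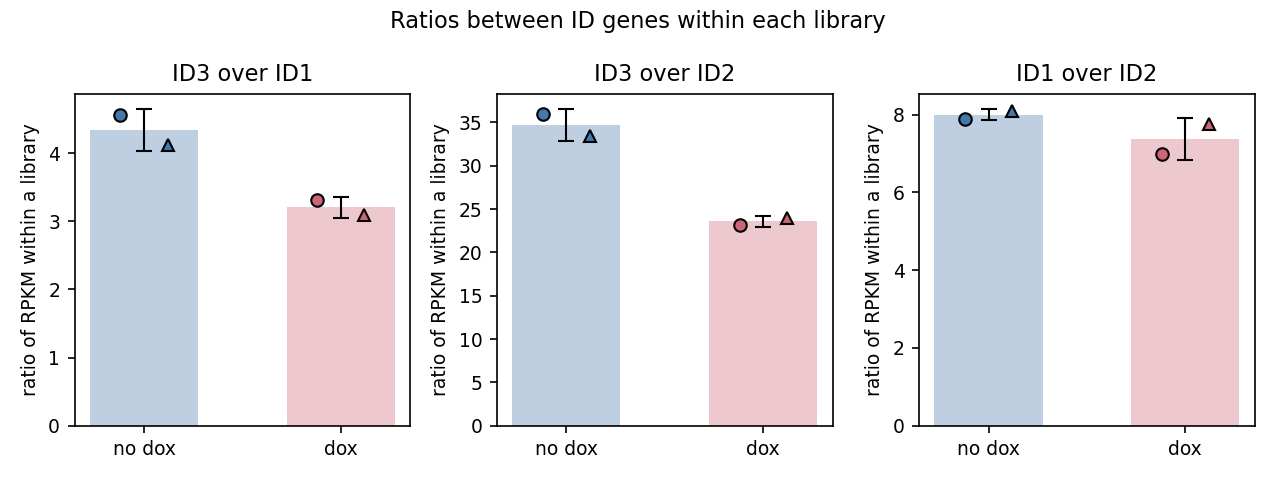
RPKM ratios within each library (linear axis from 0) of ID3 over ID1, ID3 over ID2 and ID1 over ID2 in no dox (blue) and dox (red) libraries, with circles for replicate 1, triangles for replicate 2, bars for the mean and error bars for the SD (n = 2). Both ratios with ID3 on top are lower in the dox libraries, whereas ID1 over ID2 spans 6.99 to 8.10 with a narrow gap between groups.

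The picture differed between relative and absolute differences. As a difference of means, dox minus no dox, the gain was 33.8 ± 3.76 RPKM for ID1, 5.58 ± 1.19 RPKM for ID2 and 9.32 ± 21.2 RPKM for ID3 (each with the SE from the replicate SDs, n = 2). A gain of the size seen for ID1 would be 8.88% of the no dox level of ID3, while the RPKM of the ID3 dox libraries had a coefficient of variation of 7.39%. That spread was particular to RPKM, since the CPM of the same libraries was 490 ± 0.587 (SD, n = 2). The gain of ID1 exceeded that of ID3 by 24.4 RPKM, not much above the error of the ID3 gain. In CPM the gains were 43.0 ± 9.001 for ID1 and 16.4 ± 8.99 for ID3 (SE, n = 2), and the gene models of the 2 are of nearly equal length. The absolute gains of ID1 and ID3 thus lay closer together beside their errors than the ratios within libraries, in which the scaling of the library cancels.

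**Figure D3:**
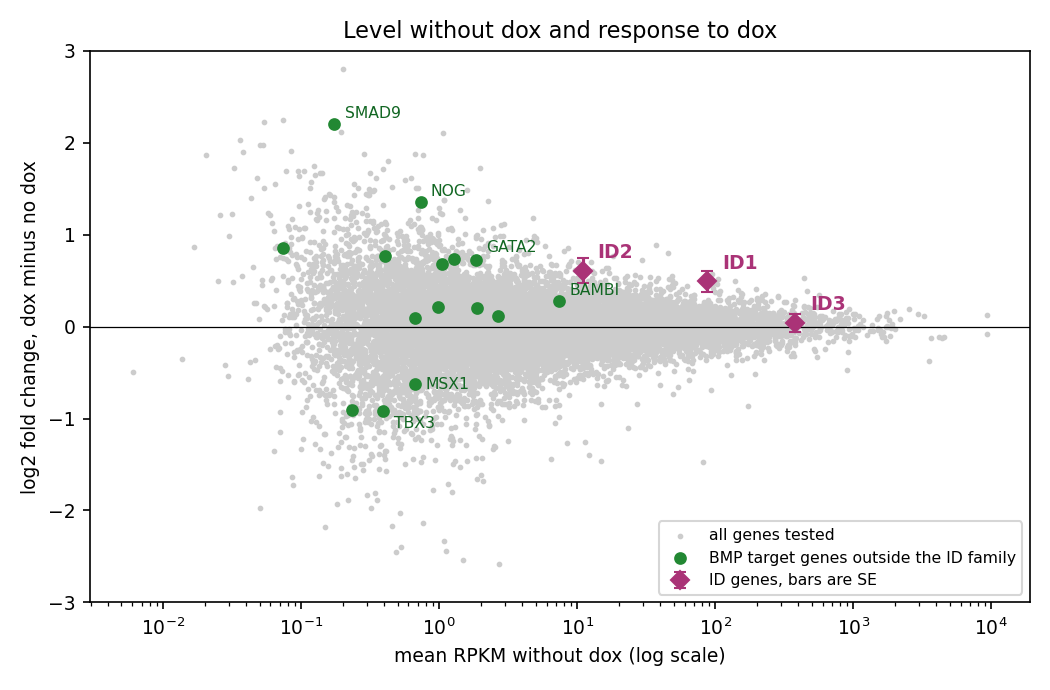
Mean RPKM without dox (log axis) against log2 fold change of dox minus no dox for the genes tested (grey), BMP target genes outside the ID family (green, 6 of them labelled) and ID1, ID2 and ID3 (purple diamonds with SE bars). ID2 and ID1 lie at 0.61 and 0.49, ID3 lies at 0.04 at the highest level of the 3, and the BMP targets are spread over low levels from −0.92 (TBX3) to 2.20 (SMAD9).

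Features of the transcripts were compared next. The canonical transcripts of ID1 and ID3 had a GC content of 57.9% and 56.7%, that of ID2 42.5% and that of ID4 41.4%. Those of ID1 and ID3 were also close in length, at 983 and 950 bases. The part of these features in the responses was not tested. No window of 50 bases, the read length, from the transcripts of ID1, ID3 or ID4 was found in a transcript of another gene. Of 1250 such windows of ID2, 14 were also in the pseudogene ID2B. ID2B had 14 and 8 reads (no dox) against 13 and 14 (dox), few beside the 525 to 597 reads of ID2.

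Annotated genes within 20 kb were few, and whether the counting used strand is not stated, so reads of a gene and its antisense partner could be mixed. ID2-AS1, an antisense RNA overlapping the longer ID2 transcript, had 22 and 13 reads (no dox) against 9 and 7 (dox), a log2 fold change of −0.71 with adjusted p = 0.722 by limma. LNC-LBCS, antisense to ID4, had 98 and 113 reads (no dox) against 63 and 86 (dox), more than the 6 to 8 reads of ID4 itself, so the ID4 reads are uncertain. Next to ID1, MIR3193 had 0 reads in every library. A lncRNA 7011 bases from ID3 (ENSG00000235052) had 5 to 14 reads per library. The lncRNAs ENSG00000289875, opposite in strand and 157 bases from ID1, and ENSG00000285802, 16935 bases from ID3, were not analysed here. Each neighbour of ID1, ID2 and ID3 that was counted had few reads beside the ID gene.

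The genes most like each ID gene over the 4 libraries were found by the root-mean-square difference of quantile-normalized log2 CPM from each gene's own mean, among 12343 genes. Nearest to ID1 were ZNF844 (0.0227), CTSF (0.0244) and PRAF2 (0.0284), nearest to ID2 were LRP1 (0.0348), PAPOLA-DT (0.0355) and PSMB9 (0.0386), and the nearest to ID3 included SLC39A4 (0.00315) and RBM15B (0.00351). ID2 was at 0.107 from ID1, with 229 genes nearer to ID1. ID3 was at 0.225 from ID1 and 0.296 from ID2, with 3126 and 3978 genes nearer. These distances come from the libraries on which the genes were chosen, so they only describe that choice.

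The pathway around the ID genes was read through 9 lists, on which 68 genes had enough reads to test. The lists were chosen with earlier results of these data known. Their counts, here and below, are therefore a description and lend no independent support. Only SMAD9 passed the test, which asked for adjusted p ≤ 0.05 and a change of 2 times or more, that is 1 of 68 where 0.0371% of all genes passed it. By edgeR and by DESeq2 it was again the 1 list gene that passed. At an unadjusted p under 0.05 there were 13 of the 68, against 9.28% of all genes. The median log2 fold change was 0.09, and 43 of the 68 were above 0, against 49.9% of all genes.

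The 3 E proteins, the partners that ID proteins sequester, did not pass the test. TCF3 had a log2 fold change of −0.01, TCF12 −0.01 and TCF4 −0.15. Their summed RPKM was 11.4 and 12.3 without dox and 9.93 and 13.3 with dox. The RPKM of the ID family over that of the E proteins was 42.3 and 38.7 without dox and 55.5 and 37.7 with dox, and the groups overlapped. ID transcript was thus well above E protein transcript in every library, with no separation by dox.

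Of 26 class II bHLH factors, the tissue-specific partners of E proteins, 15 were at 0 in every library and 5 could be tested, of which 0 passed and 1 had an unadjusted p under 0.05 (median log2 fold change 0.09). MYOD1 and TWIST1 were among those at 0. MSC, a repressor of this class, was the most abundant at 28.3 RPKM without dox, with a log2 fold change of 0.09. MESP1 had one of 0.45 (adjusted p = 0.452 by limma). The ETS factors and RB proteins that bind ID proteins gave 0 of 6 passing, with a median of 0.005, 0 at an unadjusted p under 0.05, and RB1 at 0.07. The regulators of ID protein turnover gave 0 of 5, with 0 at an unadjusted p under 0.05, and USP1, which removes ubiquitin from ID proteins, was at −0.05.

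Upstream, the BMP receptors and SMADs had 9 of 12 genes tested and a median log2 fold change of −0.005. The receptor BMPR2 was at 0.04 and ACVR1 at 0.02, and the signal transducers SMAD1, SMAD5 and SMAD4 were at 0.25, −0.01 and −0.06, none passing the test. These values are of RNA, and the study reports that the protein of both receptors rose on MIB1 loss while their transcripts did not change. SMAD9, another BMP-activated SMAD and itself a BMP target, had 20 and 24 reads (no dox) against 60 and 96 (dox). It was higher in both dox libraries, by 2.20 ± 0.35 (SE) on the log2 scale, adjusted p = 0.0265 by limma. The call was lost when any 1 library was left out, where the log2 fold change ran from 1.95 to 2.46. It was also lost with no filter on low counts and on log2(RPKM + 0.1) or log2(RPKM + 1). There the adjusted p of SMAD9 in limma was 0.613, 0.147 and 0.160. MIB1, the edited gene, lost its call under the same settings, with 0.613, 0.108 and 0.0962 where all libraries were kept. The loss was thus not particular to SMAD9. SMAD9-IT1 is annotated within SMAD9 on the same strand. Reads were counted over exons, and whether any reads of SMAD9-IT1 were counted for SMAD9 was not checked.

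Other BMP targets tested were at lower levels than ID1, ID2 and ID3 without dox, at most 7.36 RPKM (BAMBI). Of 22 listed, 15 were tested, 1 passed (SMAD9), 6 had an unadjusted p under 0.05 against 9.28% of all genes, and 12 had a log2 fold change above 0, with a median of 0.27. NOG, an extracellular BMP antagonist, had 18 and 44 reads (no dox) against 58 and 49 (dox), a log2 fold change of 1.36 with adjusted p = 0.311 by limma. For NOG this was 0.62 without no dox replicate 1 and 2.00 without no dox replicate 2, and with a replicate block NOG passed (1.22, adjusted p = 0.0158 by limma). GATA2, a zinc finger factor, had 144 and 171 reads (no dox) against 167 and 206 (dox) from smaller libraries, a log2 fold change of 0.72 with adjusted p = 0.257 by limma. The inhibitory SMAD6 was at 0.77, the Hairy-related repressor HEY1 at 0.74 and the homeobox gene DLX2 at 0.68, with adjusted p-values in limma of 0.503, 0.415 and 0.411. BAMBI, a decoy receptor, and SMAD7 were at 0.27 and 0.21. TBX3, TBX2 and MSX1, transcription factors of the same list, had values of −0.92, −0.91 and −0.63. Without a replicate block none of these but SMAD9 passed the test, and the list ran in both directions. DLX3, GATA3, HAMP and CHRDL1 were at 0 in every library.

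Among other regulators of ID transcription 0 of 13 genes tested passed, with a median log2 fold change of 0.03 and 1 at an unadjusted p under 0.05 (ZEB1, 0.33). ATF3, a repressor of ID1 in TGF-β signaling, was at −0.12 and MYC at 0.07. EGR1, an activator of ID3 in other settings, had 7 and 2 reads (no dox) against 9 and 2 (dox) and was not tested.

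Immediate early genes, which like ID genes respond to serum within minutes to hours, gave 0 of 11 passing, with 9 above 0, a median of 0.32 and 5 at an unadjusted p under 0.05, where over all genes 49.9% were above 0 and 9.28% had such a p. These were FOS (0.57), JUN (0.73), JUNB (0.42), DUSP1 (0.32) and ZFP36 (0.50), with a smallest adjusted p of 0.305 in limma. JUNB, a component of AP-1, had 3909 and 4061 reads (no dox) against 3367 and 4440 (dox). It stood at 96.7 RPKM without dox, a level like that of ID1, and had a log2 fold change close to that of ID1.

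Of the genes that E proteins and ID proteins are known to control, CDKN2A and CDKN2B, which encode inhibitors of cyclin-dependent kinases, were at 0 in every library. The 4 tested were all above 0 and none passed, with 0 at an unadjusted p under 0.05. Over all genes 49.9% were above 0 and 9.28% had such a p. CDKN1A, which encodes p21, was at 0.16, THBS1 at 0.41 and CDH1, which encodes E-cadherin, at 0.25, while CDKN1C was at 0.003.

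The summed RPKM of the epithelial markers was lower in both dox libraries. It was 82.9 and 91.5 without dox and 67.1 and 72.2 with dox, where KRT8 was at −0.34 and KRT18 at −0.41, while EPCAM was at 0.13 and CDH1 at 0.25. Of these 4 none passed the test and 2, the keratins, had an unadjusted p under 0.05, against 9.28% of all genes. Of the fibroblast markers COL1A1 alone had enough reads, 89 and 82 without dox and 22 and 83 with dox. The part of these markers in the ID values was not tested.

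The responses of the ID genes were steady across ways of scaling. Over 10 alternatives that kept all libraries, the log2 fold change ran from 0.47 to 0.49 for ID1, from 0.55 to 0.61 for ID2 and from 0.02 to 0.05 for ID3. When 1 library was left out it ran from 0.41 to 0.58 for ID1, from 0.51 to 0.71 for ID2 and from −0.02 to 0.11 for ID3, and the value of ID3 below 0 came without no dox replicate 1. ID3 lay below ID1 and ID2 under each of these settings. All of them use the libraries on which the genes were chosen, so this order restates that choice and lends it no support.

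**Figure D4:**
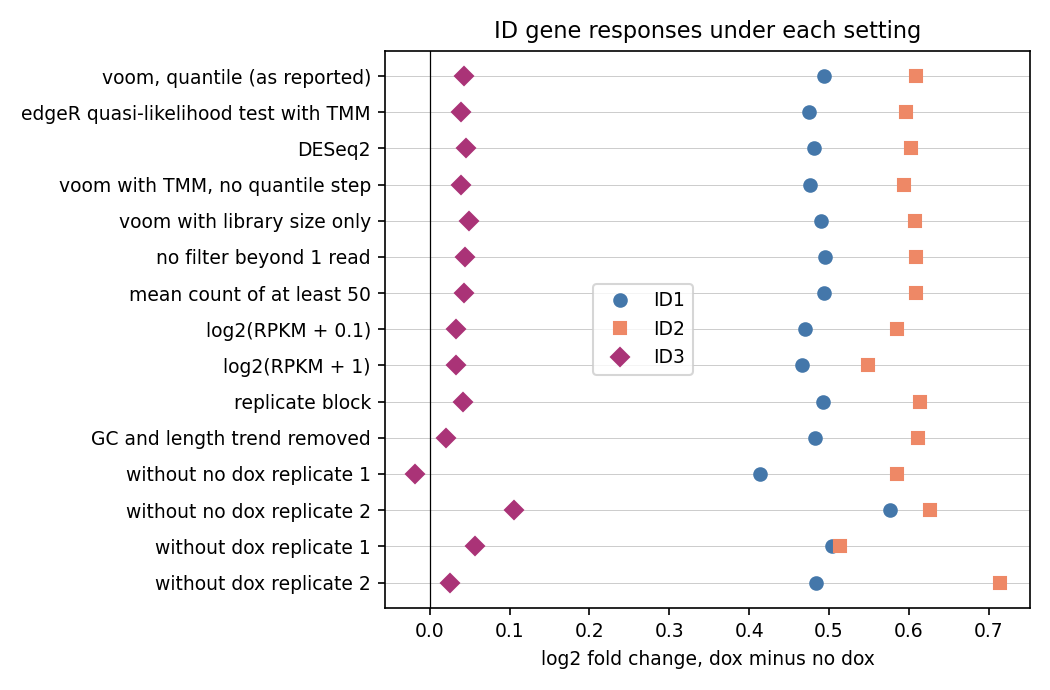
Log2 fold change of dox minus no dox (horizontal axis) of ID1 (circles), ID2 (squares) and ID3 (diamonds) under each normalization, filter or test and with each library left out (vertical axis). ID3 stays between −0.02 and 0.11 and ID1 and ID2 at 0.41 or above.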

How the data were processed

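RNA-seq of 4 MIB1-iKO libraries, 2 no dox and 2 dox, was analysed, with groups taken from the sample titles. Per the study's methods, the authors removed ribosomal reads, aligned the rest (single-end, 50 bases, at most 2 mismatches) by GSNAP to GRCh38, and HTSeqGenie counted those over exons. The deposited counts are whole reads per gene, not normalized. The deposited RPKM are scaled by gene length and depth with a further factor per library: with no dox replicate 1 set to 1, the divisors stood at 0.932 (no dox 2), 0.649 (dox 1) and 0.771 (dox 2), and the totals at 0.869, 0.653 and 0.699. The methods name a RefSeq annotation, while identifiers are Ensembl. Which of a low-input and a stranded kit was used, and whether counting used strand, is not stated for these libraries.

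Symbols were matched to GENCODE release 44 for 57532 of 58302 identifiers. Genes were kept by edgeR's filterByExpr (16181), a filter that the study's methods do not name. Following those methods, counts were scaled by library total, quantile-normalized and fitted with voom weights in limma 3.58.1 (R 4.3.3; lmFit, then eBayes), with Benjamini-Hochberg adjustment over all genes tested. Calls needed adjusted p ≤ 0.05 together with a log2 fold change of 1 or more in size. SEs of log2 fold changes are limma's moderated ones, in which the variance of a gene is drawn toward a value shared across genes (prior degrees of freedom 12.3). With 2 against 2 libraries an exact permutation test of a single gene cannot go below p = 0.333, so none was run. Alternatives were edgeR 4.0.16, DESeq2 1.42.0 without independent filtering, voom scaled by TMM or by library size alone, other filters, log2(RPKM + 0.1) and log2(RPKM + 1), a replicate block, removal of the GC and length trend, other thresholds and each library left out.

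The ID genes and the lists were chosen with earlier results of these data known. Named genes are the ID genes, MIB1, annotated genes within 20 kb, list and marker members, and the 3 genes nearest to each ID gene among those with a mean count of at least 50, of which 1 is not reported here. ID2B was named for the sequence it shares with ID2, and SMAD9-IT1 for its place within SMAD9. Promoter sequences are RefSeq's on GRCh38.p14, all 4 matched by symbol and equal to the genome. Motifs were searched on both strands, and the paired arrangement contains both GGCGCC and GTCT. Coordinates are counted from 1 on GRCh38.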

Additional observations from a re-analysis of the deposited data

How the results depend on the processing

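With ID1 and ID3 compared on log2(RPKM + 1), ID1 exceeded ID3 by 0.43 in place of 0.45. Leaving out 1 library gave 0.41 to 0.58 for ID1, 0.51 to 0.71 for ID2, −0.02 to 0.11 for ID3, 0.43 to 0.47 for ID1 minus ID3 and 0.46 to 0.69 for ID2 minus ID3, all log2. The count of all genes called, 6 as reported, was 0 with no filter beyond 1 read (2092 at an unadjusted p under 0.05), 0 on log2(RPKM + 0.1) (1442), 0 on log2(RPKM + 1) (1438), 11 with no fold threshold, and 0 to 0 with any 1 library left out (833 to 1042), where the lone sample is assumed to vary like the other group. The list genes called, 1 as reported, were 0 with no filter, 0 on either RPKM scale and 0 to 0 with any 1 library left out. In each of these SMAD9 lost its call, and so did MIB1. edgeR called 6 genes and DESeq2 5, SMAD9 among them in both.

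The replicate numbers pair nothing that the labels name, and the correlation between the groups of the difference between replicates 1 and 2 was 0.134 across genes. With the replicate block 78 genes were called and 2 on the lists, SMAD9 and NOG, and the ID responses were 0.49 for ID1, 0.61 for ID2 and 0.04 for ID3. The cause of the changed counts was not tested. Counting error was 35.4% to 40.8% for ID4, against 1.94% to 2.07% for ID1, 4.09% to 4.36% for ID2 and 0.939% to 1.13% for ID3. The low BMP targets also had few reads, and their counting error was not separated from other spread between replicates.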
